A study of Homo sapiens with 18 samples.

Results

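The metallothioneins are small cysteine-rich proteins that bind zinc, copper and other metal ions. Values were described here for 9 genes of the deposited expression table, chosen by name with earlier results of these data known. These genes were the metallothioneins MT1A, MT1E, MT1F, MT1G, MT1M, MT1X and MT2A, the metal sensor MTF1 and the zinc exporter SLC30A1. They were 9 of the 19745 genes kept from the table, and all 9 were among the 13067 genes tested, which averaged 1 or more TPM (transcripts scaled to a common total) over the libraries. The other 5 metallothionein entries of the table were MT1B, MT1H, MT1HL1, MT3 and MT4, which were not members.

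RNA was sequenced from Cas9-positive NCI-H211 cells, an established tuft-cell-like line of small cell lung cancer that expresses POU2F3. POU2F3 is a transcription factor of the octamer-binding family that specifies tuft cells. Every cell population was 1 of 3 stable lines: an empty vector line, a line with a CRISPR-resistant wild-type POU2F3 cDNA (WT), or a line with that cDNA carrying the L191A change. Lentivirus delivered a guide against the endogenous POU2F3 gene (sgPOU2F3) or a non-targeting one (sgRosa), with 3 infections of each line, and RNA was collected on day 5. The 6 groups of 3 libraries were therefore empty vector, WT and L191A, each under sgRosa and under sgPOU2F3. All groups shared the Cas9 background and a lentiviral infection, and differences between lines compared 1 stable population with another. Replicates were separate infections of 1 line, so a p-value measured the spread between infections only.

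In a cell, free zinc binds MTF1, which then binds metal response elements in promoters and raises transcription of metallothionein genes and of SLC30A1. Metallothioneins hold the metal in clusters through their cysteines, and SLC30A1, at the plasma membrane, moves zinc out of the cell. Metallothionein genes are also known to respond to glucocorticoids, oxidative stress and other metals.

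The expression values were TPM, so depth in reads was unknown. The target gene POU2F3 had 682, 654 and 853 TPM in empty-vector cells under sgRosa and 253, 318 and 274 under sgPOU2F3. It reached 1049 to 1881 TPM in the WT line, and reads of the cDNA may be counted in it. Under sgPOU2F3 it had 1136, 1276 and 1049 TPM in WT cells and 621, 672 and 645 in L191A cells. In comparisons of L191A with WT, the POU2F3 level and the L191A change therefore cannot be told apart. All 11 tuft markers examined had a median of at least 1 TPM, with a summed level of 427 to 3431 TPM, and 1 of 5 neuroendocrine markers (INSM1) did. A pair of libraries, L191A sgRosa replicate 1 and WT sgPOU2F3 replicate 1, stood apart. The median tested gene had 7.06 and 12.7 TPM in them, against 18.6 to 26.4 in the other 16, and ribosomal protein genes held 37.7% and 32.5% of TPM, against 15.6% to 26.2%. In L191A sgRosa replicate 1 POU2F3 was at 142 TPM, against 1053 and 831 in the other replicates. Calls are therefore given over all 18 libraries and, where they differ, over the 16 without this pair. Their part in the results was not tested beyond leaving them out.

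The 7 metallothioneins lie in 1 cluster on chromosome 16 (GRCh38, GENCODE v29), each with 3 exons. MT2A spans chr16:56608199-56609497 and MT1X spans chr16:56682424-56684196, both on the plus strand, and MT1G spans chr16:56666731-56668065 on the minus strand. Each coding sequence has 183 bases before the stop, or 61 codons, of which 20 (32.8%) encode cysteine. The coding sequences of 3 members follow because the results turn on them and because they show how alike the measured transcripts are. Capitals mark the cysteine codons, TGC or TGT.
MT2A: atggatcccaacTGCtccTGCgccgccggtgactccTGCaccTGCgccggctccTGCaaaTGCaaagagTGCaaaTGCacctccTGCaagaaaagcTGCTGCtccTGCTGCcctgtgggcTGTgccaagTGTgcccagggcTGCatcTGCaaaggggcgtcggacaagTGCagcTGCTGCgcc
MT1X: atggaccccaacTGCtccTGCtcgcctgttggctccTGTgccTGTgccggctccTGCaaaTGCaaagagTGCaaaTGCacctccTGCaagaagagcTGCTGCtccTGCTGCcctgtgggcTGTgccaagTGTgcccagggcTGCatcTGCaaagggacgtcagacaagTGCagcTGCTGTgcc
MT1G: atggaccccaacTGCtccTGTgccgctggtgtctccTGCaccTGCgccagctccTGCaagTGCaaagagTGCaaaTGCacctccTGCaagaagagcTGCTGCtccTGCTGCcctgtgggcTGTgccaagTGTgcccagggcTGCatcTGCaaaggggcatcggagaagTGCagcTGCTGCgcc
Over the 21 pairs of members, identity of the coding sequence ran from 88.5% to 95.1%, with a median of 91.8%. MT2A and MT1G were the most alike, with 9 differing positions, and MT1F and MT1X the least, with 21. Cut into windows of 31 bases, 8.32% (MT1F) to 23.8% (MT1M) of a member's transcript windows also occurred in another metallothionein transcript. For MT1X the share was 11.7%, and 45.2% of its windows occurred in a transcript of any other gene. Reads from windows shared within the family can be divided between the copies. The level of a single metallothionein is in this respect less certain than the level of the family. Most of the shared MT1X windows occurred in no other metallothionein transcript. Reads from them can be divided with other genes, which makes both the MT1X level and the family sum less certain. MTF1 and SLC30A1 shared no window with a metallothionein.

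The promoters of MT2A, MT1X and SLC30A1 were read because these genes are known MTF1 targets. The RefSeq promoter table (GRCh38.p14) matched 4 of the 9 members, with 250 bases before the start. The others, MT1A, MT1E, MT1F, MT1G and MT1M, are named only. The metal response core, TGCACNC or TGCGCNC on either strand, was found 7 times before MT2A, 4 times before MT1X, 1 time before SLC30A1 and 0 times before MTF1. Of 27305 promoters of this length, 24.7% held at least 1 match, 0.366% at least 4 and 0.0330% at least 7. The bases of MT1X upstream of both annotated starts lie at chr16:56682220-56682423, plus strand, and those of SLC30A1 at chr1:211579162-211579411, minus strand, with the matches in capitals.
MT1X: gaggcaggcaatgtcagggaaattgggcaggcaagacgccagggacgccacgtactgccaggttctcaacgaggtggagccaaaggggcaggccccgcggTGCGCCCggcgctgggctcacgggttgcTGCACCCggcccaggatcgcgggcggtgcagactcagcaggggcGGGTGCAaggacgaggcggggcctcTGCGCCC
SLC30A1: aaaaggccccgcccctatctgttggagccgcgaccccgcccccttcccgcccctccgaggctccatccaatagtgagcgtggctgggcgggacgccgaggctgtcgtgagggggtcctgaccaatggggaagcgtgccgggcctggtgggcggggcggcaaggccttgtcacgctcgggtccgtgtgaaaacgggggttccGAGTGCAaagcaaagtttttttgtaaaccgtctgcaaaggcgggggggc
The MT2A window falls inside an exon of a longer annotated transcript, so only a stretch with a pair of matches is shown, chr16:56608416-56608437, from 168 to 147 bases before the start.
MT2A: GTGTGCAgagccgggTGCGCCC
Further MT2A matches began at -246, -139, -88, -54 and -8 relative to the start. The octamer ATGCAAAT, which POU2F factors are known to bind, was in 0 of the 4 windows and in 1.66% of all promoters. The AP-1 motif TGANTCA was found 1 time before MT2A (6.60% of promoters held one), where it overlapped a match to the antioxidant response core TGACNNNGC. A match is a string in a window and not a shown binding site, and binding was not measured.

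MT2A was the most abundant member, with more TPM per library on average than 97.3% of the tested genes, followed by MT1X (94.1%), MT1E (93.0%), MT1G (92.4%) and MT1F (87.5%). The exporter SLC30A1 stood above 67.3%, and MTF1, MT1M and MT1A above 30.03%, 27.9% and 16.6%. TPM is a level per transcript length, so these levels can be compared between genes. Summed over the 7 metallothioneins, empty-vector cells had 977, 937 and 584 TPM under sgRosa and 1369, 1157 and 1345 under sgPOU2F3. WT cells had 551, 583 and 578 TPM under sgRosa and 994, 733 and 749 under sgPOU2F3. L191A cells had 1965, 1046 and 1140 TPM under sgRosa and 929.5, 972 and 812 under sgPOU2F3. Within each line the groups did not overlap. The sum was higher under sgPOU2F3 in the empty-vector and WT lines and lower in the L191A line, and WT cells under sgRosa had the lowest group mean, 570 ± 17.3 TPM (SD, n = 3).

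**Figure D1:**
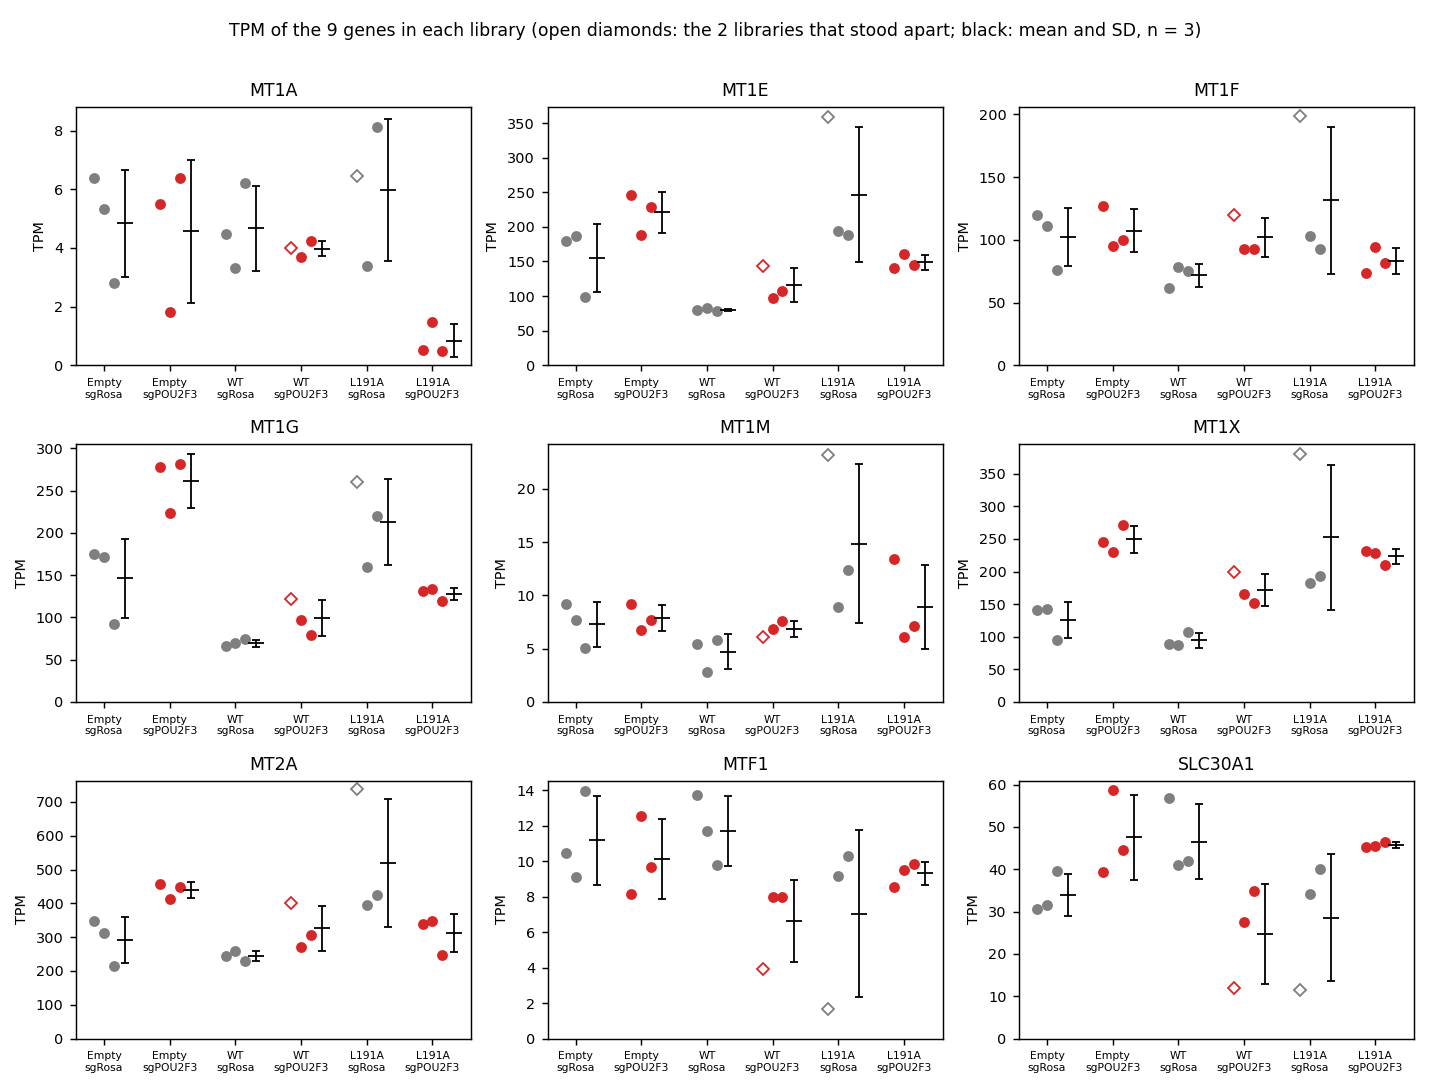
TPM of each of the 9 genes (vertical axes, linear from 0) in the 3 libraries of each group (horizontal axis), with the mean and SD in black and the 2 libraries that stood apart as open diamonds. All metallothioneins shown except MT1A have their lowest group mean in WT cells under sgRosa. The L191A sgRosa diamond is the highest library for MT2A, at 737 TPM, and the lowest for MTF1, at 1.65 TPM.

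The comparison of sgPOU2F3 with sgRosa in empty-vector cells asks what happens to these genes when endogenous POU2F3 is targeted. MT1X and MT1G rose and no member fell. MT1X, a metallothionein that binds zinc and copper, had 141, 142 and 94.4 TPM under sgRosa and 246, 230 and 272 under sgPOU2F3. Its groups did not overlap, and its change was 1.00 ± 0.23 (log2, SE, on the log2(TPM + 1) scale), with an adjusted p of 0.00702 by limma. MT1G had 175, 172 and 92.5 TPM under sgRosa and 278, 224 and 282 under sgPOU2F3, again without overlap, a change of 0.88 ± 0.23 (limma adjusted p = 0.0152).

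MT2A, the most widely expressed metallothionein, had 346, 312 and 214 TPM under sgRosa and 456, 412 and 449 under sgPOU2F3. Its change of 0.62 ± 0.23 did not pass over 18 libraries (limma adjusted p = 0.0782) and passed over 16 (adjusted p = 0.00301). MT1E, with 180, 187 and 98.9 TPM under sgRosa and 247, 188 and 228 under sgPOU2F3, behaved likewise, with adjusted p-values of 0.161 and 0.0151 by limma. MT1F, MT1M and MT1A overlapped between the guides, and their ratios of means were 1.05, 1.08 and 0.943. In all, 2 of the 7 metallothioneins passed over 18 libraries, where 17.4% of all tested genes passed in either direction, and 4 of 7 over 16, where 51.7% did. The median change of the 7 was 0.55, beside -0.13 over all tested genes. Replicate 3 of the sgRosa group was the lowest of its group for all 7 metallothioneins. Without it the MT1G change was 0.58 (limma adjusted p = 0.0893), and the MT1X call held without any 1 library of the comparison. The MT1G call was also lost without replicate 1 or replicate 3 of the sgPOU2F3 group (changes of 0.83 and 0.82).

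With the WT cDNA present, only MT1X passed. It had 89.6, 86.8 and 108 TPM under sgRosa and 199, 166 and 152 under sgPOU2F3, a change of 0.85 ± 0.23 (limma adjusted p = 0.0436) over 18 libraries and 0.74 ± 0.15 (adjusted p = 0.00423) over 16. The groups did not overlap in either case. This was 1 of 7 metallothioneins, beside 6.81% of all tested genes over 18 libraries and 36.1% over 16. MT1E, MT1F, MT1G, MT1M and MT2A also had non-overlapping, higher values under sgPOU2F3, with ratios of means from 1.33 to 1.45, but did not pass. The share of all tested genes without overlap was not counted, so nothing is read from the number of such members. The median change of the 7 was 0.50, beside -0.42 over all tested genes, and over 16 libraries 0.34 beside -0.26. The MT1X call was lost when any 1 library other than WT sgPOU2F3 replicate 3 was left out, with changes between 0.74 and 0.95.

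With the L191A cDNA present, MT1A fell and no metallothionein rose. MT1A, a low-expressed member, had 6.45, 3.37 and 8.12 TPM under sgRosa and 0.525, 1.49 and 0.498 under sgPOU2F3. The change was -1.90 ± 0.37 (limma adjusted p = 0.00419) over 18 libraries and -1.82 ± 0.40 (adjusted p = 0.00622) over 16, and the call held without any 1 library. The 3 L191A sgPOU2F3 libraries were the lowest of all 18 for MT1A, below the 1.81 TPM of empty vector sgPOU2F3 replicate 2. These levels are near the filter of 1 TPM, and 18.9% of MT1A windows are shared with other copies.

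Among the abundant metallothioneins, MT1E, MT1G and MT2A were lower under sgPOU2F3 in L191A cells without overlap but did not pass. The share of all tested genes without overlap was not counted, so nothing is read from the number of such members. MT1F and MT1X overlapped between the guides over 18 libraries. MT2A had 737, 395 and 425 TPM under sgRosa and 340, 348 and 248 under sgPOU2F3, a change of -0.69 ± 0.23 (limma adjusted p = 0.0988) over 18 libraries and -0.41 ± 0.17 (adjusted p = 0.16) over 16. MT1X had 381, 183 and 194 TPM under sgRosa and 231, 228 and 210 under sgPOU2F3. Over 16 libraries its sgPOU2F3 values lay above both sgRosa values, and the change was 0.25 ± 0.15 (limma adjusted p = 0.389), against -0.09 over 18. Of the 7, 1 passed, beside 5.99% of all tested genes over 18 libraries and 10.7% over 16. The median change of the 7 was -0.66, beside 0.33 over all tested genes, and over 16 libraries -0.36 beside 0.01.

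**Figure D2:**
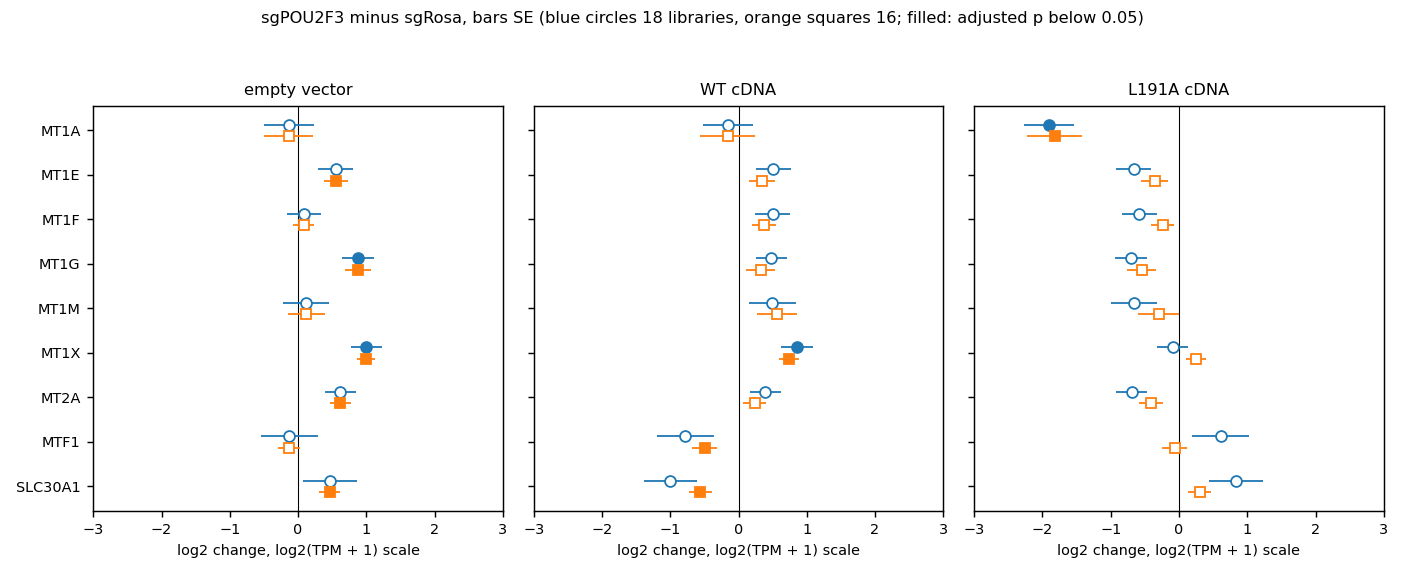
Change under sgPOU2F3 relative to sgRosa (horizontal axis, log2 on the log2(TPM + 1) scale, bars SE) for the 9 genes in the 3 lines, over 18 libraries (blue circles) and 16 (orange squares), filled where limma's adjusted p was below 0.05. MT1X lies at 1.00 in empty-vector cells, 0.85 in WT cells and -0.09 in L191A cells over 18 libraries, and MT1A at -1.90 in L191A cells.

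The differences between these effects were tested as interactions. The effect in WT cells did not differ from that in empty-vector cells by the test for any of the 7 metallothioneins (0 of 7 by limma, and 0 at an unadjusted p below 0.05, in both sets of libraries, beside 6.99% of all tested genes over 18 libraries and 26.7% over 16). For MT1X the difference was -0.15, with a 95% interval from -0.85 to 0.55. The effect in L191A cells was lower than that in empty-vector cells for MT1G, by -1.59 ± 0.33 (limma adjusted p = 0.0115), and for MT2A, by -1.31 ± 0.33 (adjusted p = 0.0287). The MT1G difference passed without any 1 library of the 4 groups. The MT2A difference did not pass without empty vector sgRosa replicate 3, either replicate 1 or 3 of the empty-vector sgPOU2F3 group, or either replicate 1 or 3 of the L191A sgPOU2F3 group, with values between -1.38 and -1.11. These 2 of 7 stood beside 6.08% of all tested genes. Over 16 libraries MT1A, MT1E and MT1X passed as well, 5 of 7 beside 23.3%.

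Against the effect in WT cells, the effect in L191A cells was lower for MT1A (-1.75), MT1E (-1.17), MT1G (-1.18) and MT2A (-1.08), with limma adjusted p-values of 0.0452, 0.0488, 0.0367 and 0.0452. The 4 of 7 stood beside 11.7% of all tested genes. Over 16 libraries 0 of 7 passed by limma (6 at an unadjusted p below 0.05), beside 13.2% of all tested genes, and the 4 differences were -1.66, -0.70, -0.87 and -0.65 with limma adjusted p-values from 0.0628 to 0.0932. This comparison contains both libraries that stood apart. Over 18 libraries the 4 calls held in 3 to 5 of the 12 fits that left out 1 library, and all 4 were lost without WT sgPOU2F3 replicate 1 and without each WT sgRosa or L191A sgPOU2F3 library. The 2 interactions with L191A share the L191A libraries and are not independent of each other.

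The lines themselves differed under the control guide, most between L191A and WT. In L191A cells 6 of the 7 metallothioneins were higher than in WT cells, MT1A being the exception. MT1G had 65.7, 69.4 and 73.9 TPM in WT cells and 260, 159 and 220 in L191A cells, a difference of 1.57 ± 0.23 (limma adjusted p = 0.000154) over 18 libraries and 1.41 ± 0.21 (adjusted p = 5.78e-05) over 16. MT1E had 79.5, 82.3 and 78.6 TPM in WT cells and 359, 193 and 188 in L191A cells, a difference of 1.54 ± 0.26 (limma adjusted p = 0.000357) and 1.24 ± 0.20 (adjusted p = 8.47e-05). All L191A values were above all WT values for both genes.

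MT1X (1.33 over 18 libraries, 0.99 over 16), MT2A (1.02 and 0.74), MT1M (1.42 and 1.06) and MT1F (0.79 and 0.45) passed in both fits. MT2A had 244, 260 and 231 TPM in WT cells, and MT1M, a low-expressed member, had 5.46, 2.84 and 5.83 TPM there and 23.2, 8.94 and 12.4 in L191A cells. The groups did not overlap for any of the 6, and the share of all tested genes without overlap was not counted. The MT1F call was lost without L191A sgRosa replicate 1 (0.45) or without WT sgRosa replicate 1 (0.68), and those of the other 5 held without any 1 library. Much of the transcriptome passed in this comparison, 55.8% over 18 libraries and 58.2% over 16, but mostly as lower in L191A cells. Only 7.74% of tested genes passed as higher over 18 libraries and 13.9% over 16. The median of the 7 was 1.33, beside -0.67 over all tested genes, and over 16 libraries 0.99 beside -0.31.

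Against the empty vector, the WT line under sgRosa was lower for MT1G (-1.005 ± 0.23, limma adjusted p = 0.0142) and MT1E (-0.89 ± 0.26, adjusted p = 0.0461), 2 of 7 beside 7.20% of all tested genes. Over 16 libraries MT1F and MT1X passed as lower too, 4 of 7 beside 34.3%. Leaving out empty vector sgRosa replicate 1 or 2, or WT sgRosa replicate 1 or 2, ended both calls, with values between -1.003 and -0.73, and leaving out WT sgRosa replicate 3 ended that of MT1E (-0.88). The L191A line under sgRosa was higher than the empty vector for MT1X (0.94 ± 0.23, limma adjusted p = 0.00953) and MT2A (0.80 ± 0.23, adjusted p = 0.0178), 2 of 7 over 18 libraries, where 36.0% of all tested genes passed in either direction and 4.94% as higher. Over 16 the same 2 passed, at 0.60 and 0.52, beside 39.2% in either direction and 9.30% as higher. Both calls were lost without empty vector sgRosa replicate 3 (0.75 and 0.60), and that of MT2A also without L191A sgRosa replicate 1 (0.52).

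**Figure D3:**
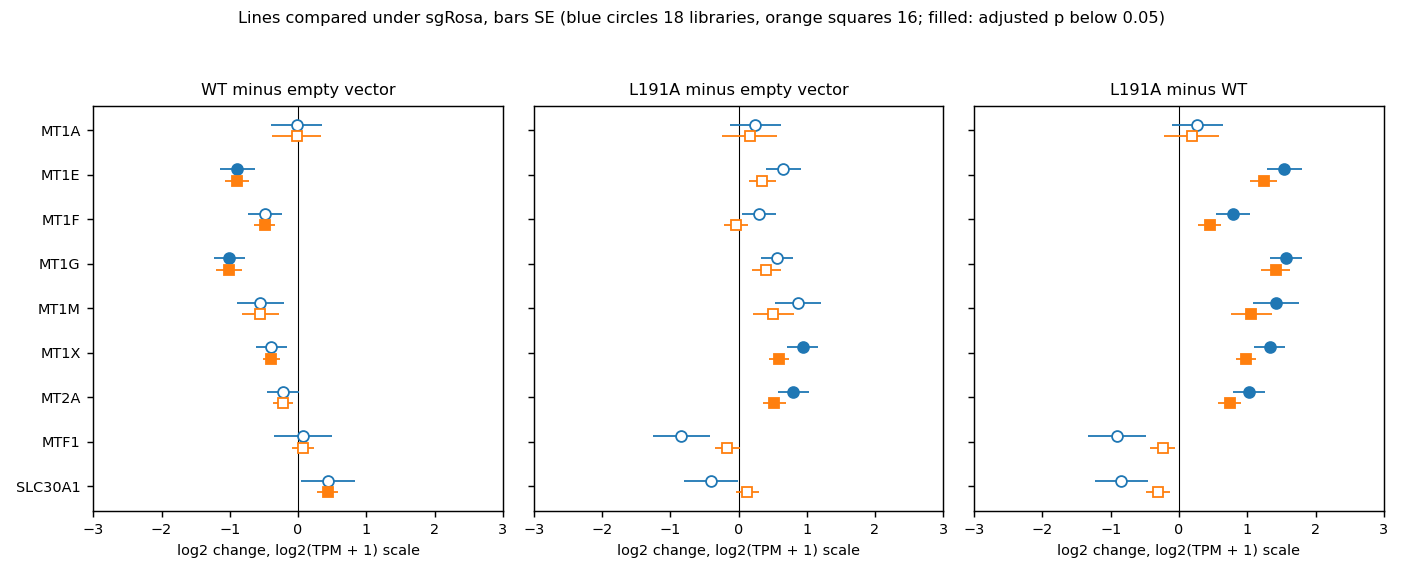
Differences between the 3 lines under sgRosa (horizontal axis, log2 on the log2(TPM + 1) scale, bars SE) for the 9 genes, over 18 libraries (blue circles) and 16 (orange squares), filled where limma's adjusted p was below 0.05. In the comparison of L191A with WT, 6 of 7 metallothioneins are filled and to the right of 0 in both fits, while MTF1 and SLC30A1 lie at -0.91 and -0.84 over 18 libraries and are open.

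Under sgPOU2F3 the WT line was again lower than the empty vector for MT1G (-1.41 ± 0.23, limma adjusted p = 0.00047) and MT1E (-0.93 ± 0.26, adjusted p = 0.0168), 2 of 7 beside 20.6% of all tested genes. Its MT1G values of 122, 96.4 and 79.0 TPM lay far below the 224 to 282 TPM of the empty vector, and that call held without any 1 library. The MT1E call was lost without empty vector replicate 1 or 3 (-0.85 and -0.91) or WT replicate 2 (-0.82). Over 16 libraries MT1X and MT2A passed as lower too, 4 of 7 beside 43.6%. The L191A line was lower than the empty vector for MT1A (-1.52 ± 0.37, limma adjusted p = 0.0271) and MT1G (-1.02 ± 0.23, adjusted p = 0.0168), 2 of 7 beside 3.79%. Over 16 libraries MT1E and MT2A joined them, 4 of 7 beside 22.9%. Each of these 2 calls was lost without empty vector replicate 1 or 3 or L191A replicate 1 or 3, and that of MT1G also without L191A replicate 2 (values of -1.05 to -0.96 for MT1G and -1.41 to -1.26 for MT1A).

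L191A against WT under sgPOU2F3 compared the lines of the 2 cDNAs with the endogenous gene targeted, at unlike POU2F3 levels. Here 1 of 7 passed, beside 13.5% of all tested genes. This was MT1A, which was lower in L191A cells by -1.48 ± 0.37 (limma adjusted p = 0.0143). Its values of 0.498 to 1.49 TPM did not overlap the 3.71 to 4.24 TPM of WT cells. The call was lost without L191A replicate 1 or 3 (-1.37 and -1.35). Over 16 libraries MT1E (0.54, limma adjusted p = 0.0395) and MT1X (0.49, adjusted p = 0.0152) were higher, making 3 of 7 beside 37.4%. MT2A differed by -0.06, with a 95% interval from -0.55 to 0.43.

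The make-up of the pool moved as well. MT1X held 14.4%, 15.2% and 16.2% of the summed TPM in empty-vector cells under sgRosa and 17.96%, 19.9% and 20.2% under sgPOU2F3. In WT cells it held 16.3%, 14.9% and 18.6% under sgRosa and 20.0%, 22.6% and 20.2% under sgPOU2F3. In L191A cells it held 19.4%, 17.5% and 17.0% under sgRosa and 24.9%, 23.5% and 25.9% under sgPOU2F3. The share was higher under sgPOU2F3 without overlap in all 3 lines, by 4.09, 4.36 and 6.81 percentage points, the L191A line included, where the summed level was lower. MT1A was lower without overlap in all 3, from 0.567% to 0.344%, 0.818% to 0.491% and 0.454% to 0.0903% of the sum. MT2A held between 34.1% and 42.9% of the sum in group means, and in L191A cells it fell from 37.5% to 34.3% without overlap. In empty-vector cells only, MT1F fell from 12.4% to 8.32% and MT1M from 0.873% to 0.608%, while MT1G rose from 17.4% to 20.2%, each without overlap. These shares were chosen for description after their values were seen and were not tested, and a share shows unequal change between members, not which of them changed.

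**Figure D4:**
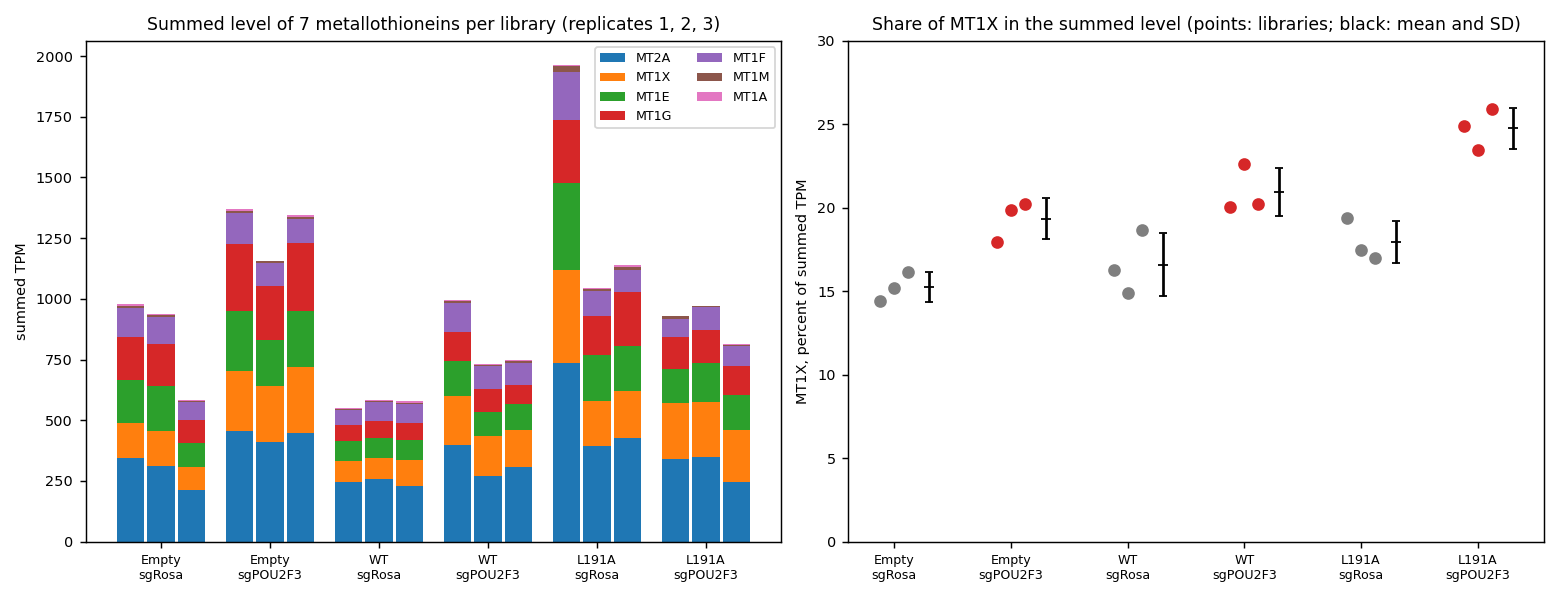
Left, the summed TPM of the 7 metallothioneins in each of the 18 libraries (vertical axis), stacked by gene, for replicates 1 to 3 of each group. Right, the MT1X share of that sum in percent per library with mean and SD, which rises from 15.3% to 19.3% (empty vector), 16.6% to 21.0% (WT) and 17.9% to 24.7% (L191A) in group means.

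Levels of the 5 abundant metallothioneins went together across libraries. As a description, Pearson's r of their log2(TPM + 1) values ran from 0.66 to 0.95 over the 10 pairs in 18 libraries and from 0.51 to 0.96 in 16. MT1E and MT1G were the closest pair, at 0.95 and 0.96. MT1A correlated with the other 6 at -0.11 to 0.41. These points share libraries, scaling and some reads. Of 10543 genes averaging 5 or more TPM, those most like the summed metallothionein level over 18 libraries were HSD17B10 (r = 0.96), SNRPF (0.95), SNRPC (0.95), JPT1 (0.95) and POLR3K (0.94). For MT2A alone they were POLR2I (0.93), PAFAH1B3 (0.93), ANKRD39 (0.91), NUDT1 (0.91) and COX4I1 (0.91). Over 16 libraries the genes most like the sum were LSM2 (0.96), JPT1 (0.96), HSD17B10 (0.95), SNRPC (0.94) and YDJC (0.94), and those most like MT2A were ANKRD39 (0.93), YDJC (0.92), POLR2I (0.90), DTYMK (0.90) and RUVBL2 (0.90). The coding transcripts of the 10 genes named over 18 libraries have median lengths of 646 to 1392 bases, and those of the metallothionein members of 396 to 704 bases.

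MTF1, the zinc-sensing transcription factor, spans chr1:37809567-37859620 on the minus strand. It had 10.5, 9.12 and 13.9 TPM in empty-vector cells under sgRosa and 8.16, 12.6 and 9.67 under sgPOU2F3, with overlap. WT cells had 13.7, 11.7 and 9.78 TPM under sgRosa and 3.94, 7.97 and 7.96 under sgPOU2F3, without overlap. L191A cells had 1.65, 9.18 and 10.3 TPM under sgRosa and 8.56, 9.53 and 9.86 under sgPOU2F3. MTF1 passed by limma in 0 of the 12 comparisons over 18 libraries (2 at an unadjusted p below 0.05). The lowest values, 1.65 and 3.94 TPM, were those of the libraries that stood apart, and in WT cells over 16 libraries MTF1 fell by 0.49 under sgPOU2F3 (limma adjusted p = 0.047).

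SLC30A1, the plasma membrane zinc exporter and a known MTF1 target, spans chr1:211571568-211578742 on the minus strand. Empty-vector cells had 30.6, 31.6 and 39.5 TPM under sgRosa and 39.3, 58.6 and 44.6 under sgPOU2F3, with overlap. WT cells had 56.8, 40.9 and 41.9 TPM under sgRosa and 11.8, 27.5 and 34.7 under sgPOU2F3, and L191A cells 11.5, 34.0 and 40.1 TPM and 45.2, 45.6 and 46.5. The guide groups did not overlap in these 2 lines, lower under sgPOU2F3 in WT cells and higher in L191A cells. The effect in L191A cells exceeded that in WT cells by 1.83 ± 0.56 (limma adjusted p = 0.0465) over 18 libraries and by 0.86 ± 0.24 (adjusted p = 0.0307) over 16. Over 18 libraries this call was lost without WT sgPOU2F3 replicate 1 or 2 and without each WT sgRosa or L191A sgPOU2F3 library.

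Over 16 libraries SLC30A1 rose under sgPOU2F3 in empty-vector cells (0.46, limma adjusted p = 0.0194) and fell in WT cells (-0.56, adjusted p = 0.0257). The difference between these effects was -1.02 (limma adjusted p = 0.00435), and over 18 libraries -1.46 (adjusted p = 0.135). Under sgRosa SLC30A1 was higher in WT than in empty-vector cells by 0.44, which passed over 16 libraries (limma adjusted p = 0.0374) and not over 18 (adjusted p = 0.658). In WT cells MT1X rose while SLC30A1 fell over these 16 libraries. MTF1 and SLC30A1 correlated at 0.89 over 18 libraries and 0.55 over 16. The genes most like MTF1 over 18 libraries were SETD2, TLK2, HNRNPUL1, FOXRED2 and KPNA6 (r = 0.99 each), and those most like SLC30A1 were RGMB, AP1B1, LAMP1, NPLOC4 and FAM83G (0.98 each). Over 16 libraries they were SAP130, NCOA6, GPATCH8, TLK2 and CHD4 for MTF1 (0.93 to 0.94) and ASAP1, ESYT2, CHST10, C1orf198 and TBC1D4 for SLC30A1 (0.92 to 0.93). MTF1 and SLC30A1 have transcripts of 7972 and 5474 bases. The genes named as most like them over 18 libraries have coding transcripts with median lengths of 665 to 4231 bases. For those named over 16 libraries the lengths are 638.5 to 6347 bases. In the libraries that stood apart levels fell with transcript length relative to the other replicates (slopes of -0.365 and -0.135, against -0.076 to 0.186 elsewhere). The highest slopes, 0.179 and 0.186, were those of L191A sgRosa replicates 2 and 3, which were themselves compared with replicate 1. SLC30A1 correlated with the metallothionein members at -0.75 (MT1F) to -0.18 (MT1G) over 18 libraries. Over 16 its values ran from -0.52 (MT1F) to 0.11 (MT1X), with MT2A at 0.02. MTF1 correlated with them at -0.79 (MT1F) to -0.21 (MT1A) over 18 libraries and -0.53 (MT1X) to -0.02 (MT1A) over 16. The part of transcript length in these correlations was not tested.

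Other metallothioneins were read beside the members. MT1H, which neighbours MT1G, had 21.1, 29.6 and 10.4 TPM in empty-vector cells under sgRosa and 3.95, 2.46 and 4.22 in WT cells, a difference of -2.14 ± 0.44 (limma adjusted p = 0.00644). Under sgPOU2F3 it had 34.7, 27.6 and 32.6 TPM in empty-vector cells and 5.17, 5.998 and 1.57 in WT cells, a difference of -2.76 ± 0.44 (adjusted p = 0.000344). MT1B was also lower in WT cells under both guides (-1.64 and -1.63, limma adjusted p = 0.0159 and 0.00681). Over 16 libraries these calls of MT1H and MT1B also passed, with differences of -2.14 and -2.94 for MT1H and -1.64 and -1.59 for MT1B. The table listed MT1HL1 and MT4 at 0 in all 18 libraries. MT3, known from brain, had group means of 13.2 to 28.6 TPM and passed by limma over 18 libraries in 0 of the 3 sgPOU2F3 effects (1 at an unadjusted p below 0.05). Over 16 libraries it fell in empty-vector cells, from 27.3, 26.6 and 16.003 TPM under sgRosa to 14.97, 11.4 and 13.4 under sgPOU2F3, without overlap (-0.74, limma adjusted p = 0.00796, against 0.174 over 18).

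Lists of related genes were read in the 3 sgPOU2F3 effects and between L191A and WT under sgPOU2F3. Over 18 libraries 17.4%, 6.81% and 5.99% of all tested genes passed in empty-vector, WT and L191A cells and 13.5% between the lines, and over 16 libraries 51.7%, 36.1%, 10.7% and 37.4%. Nothing particular to a list is read from its count. A listed gene is called measured where it was among the tested genes, and nothing is read about the level of the others.

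Of 9 other listed exporters of the SLC30 family 7 were measured, and over 18 libraries only SLC30A4 passed in a sgPOU2F3 effect, falling by 1.09 in WT cells (limma adjusted p = 0.0401). Over 16 libraries 3 exporters fell in empty-vector cells and 4 in WT cells, and 0 passed by limma in L191A cells (2 at an unadjusted p below 0.05). Of 14 importers of the SLC39 family 11 were measured. Over 18 libraries SLC39A1 (0.74) and SLC39A3 (0.51) rose in empty-vector cells, SLC39A7, an endoplasmic reticulum zinc transporter, fell by 0.57 in WT cells, and 0 passed by limma in L191A cells (6 at an unadjusted p below 0.05). Between L191A and WT under sgPOU2F3, SLC39A3 (0.77), SLC39A1 (0.57) and SLC39A8 (0.83) were higher in L191A cells. Over 16 libraries 4 importers rose and 2 fell in empty-vector cells, 3 fell in WT cells, 0 passed by limma in L191A cells (5 at an unadjusted p below 0.05), and between the lines 3 were higher and 2 lower in L191A cells. Under sgRosa 5 of the 7 exporters were lower in L191A than in WT cells over 18 libraries and 4 over 16.

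Among 13 measured copper-handling genes 0 passed by limma in any of these 4 comparisons over 18 libraries (11 results at an unadjusted p below 0.05), and over 16 libraries 4 rose and 4 fell in empty-vector cells, 2 rose and 5 fell in WT cells, 0 passed by limma in L191A cells (2 at an unadjusted p below 0.05), and 4 were higher and 2 lower in L191A than in WT cells. Of 9 iron-handling genes over 18 libraries FTL, the ferritin light chain, rose in empty-vector cells (0.78), and SLC40A1, the iron exporter ferroportin, rose in L191A cells (1.38), and 0 passed by limma in WT cells (2 at an unadjusted p below 0.05). Over 16 libraries 2 iron-handling genes rose in empty-vector cells, FTL and TFRC, the transferrin receptor (0.21), and 6 fell, among them SLC11A2, an iron importer (-0.78), and SLC40A1 (-0.56). In WT cells 2 fell, SLC11A2 (-0.38) and IREB2 (-0.39), in L191A cells 1 rose, and 4 were higher in L191A than in WT cells under sgPOU2F3. Medians over the iron list were -0.25, -0.10 and 0.57 in the 3 lines over 18 libraries.

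Genes of the other pathways known to reach metallothionein promoters were read in the same comparisons. Of 17 measured NRF2 oxidative-response genes 6 rose over 18 libraries under sgPOU2F3 in empty-vector cells, led by OSGIN1 (1.53), TALDO1 (0.66) and SRXN1 (0.97), and 0 fell. In WT cells GPX2 (0.98) and HMOX1 (0.76) rose and GCLC fell by 1.25, and in L191A cells 4 rose, among them OSGIN1 (1.15), SRXN1 (0.87) and NFE2L2, which encodes NRF2 (0.72). Medians over the list were 0.53, -0.29 and 0.57 in the 3 lines, beside -0.13, -0.42 and 0.33 over all tested genes. Between L191A and WT under sgPOU2F3, 7 were higher in L191A cells, led by TALDO1 (0.69) and SRXN1 (0.95), and 1 lower, HMOX1 (-0.90). Over 16 libraries 11 rose and 1 fell in empty-vector cells, 4 rose and 4 fell in WT cells and 7 rose in L191A cells, and 11 were higher and 1 lower in L191A than in WT cells.

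Of 10 measured glucocorticoid targets 3 rose and 2 fell in empty-vector cells over 18 libraries, and 3 rose and 6 fell over 16, with a list median of -0.55. SGK1, a serum- and glucocorticoid-regulated kinase, rose by 2.54 and DUSP1 by 1.37, while TSC22D3 (GILZ) fell by 1.05. SGK1 rose in WT cells (0.87), where over 16 libraries 3 others of the list fell, and SGK1 (1.49), ERRFI1 (1.78) and DUSP1 (0.95) rose in L191A cells. Over 16 libraries 4 rose and 3 fell in L191A cells. Between L191A and WT under sgPOU2F3, SGK1 (1.54) and ERRFI1 (1.96) were higher and TSC22D3 lower (-0.96) in L191A cells, and over 16 libraries 4 were higher and 4 lower. Of 14 listed heat shock genes 5 were among the tested genes. SERPINH1, a collagen chaperone, rose in empty-vector (1.32) and L191A (1.51) cells, HSP90AA1 rose in empty-vector cells (0.48), and 0 passed by limma in WT cells (2 at an unadjusted p below 0.05). Over 16 libraries all 5 measured heat shock genes rose in empty-vector cells, HSF1, the heat shock transcription factor, fell in WT cells (-0.60), 1 rose in L191A cells, and 3 were higher in L191A than in WT cells under sgPOU2F3.

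Markers of other cell types stayed low in these bulk libraries, in which fewer cells of a type and less RNA per cell cannot be told apart. Summed fibroblast markers (5 of 7 with a median of at least 1 TPM) ran from 8.17 to 26.7 TPM. They were at 8.70 to 10.9 TPM in empty-vector sgRosa libraries and 20.7 to 26.7 in empty-vector sgPOU2F3 libraries. WT cells went the other way, with 19.7 to 24.0 TPM under sgRosa and 8.17 to 11.1 under sgPOU2F3. L191A cells overlapped between the guides, with 9.46 to 15.3 TPM under sgRosa and 14.2 to 14.8 under sgPOU2F3. Lymphoid and myeloid markers (4 of 6) ran from 5.23 to 21.3 TPM, with CD14 up to 10.8, PTPRC up to 6.80 and CD3E at 0 in all 18. Endothelial markers (0 of 4) reached 0.804 TPM. Erythroid markers (0 of 4 present) reached 2.23 TPM in sum, with HBB at 0 in all 18. Summed tuft markers were 2401 to 3088 TPM in empty-vector cells under sgRosa and 808 to 1058 under sgPOU2F3. In WT cells they were 3406 to 3431 TPM under sgRosa and 1824 to 2247 under sgPOU2F3. L191A cells had 427 to 1719 TPM under sgRosa, already below the empty vector, and 921 to 969 under sgPOU2F3. The part of these shifts in the metallothionein values was not tested.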

How the data were processed

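The authors deposited TPM values for 18 libraries (6 groups of 3), made from poly(A) RNA and a TruSeq kit, per the labels' protocols, with kallisto and hg38, per the submitters' processing notes. The version and transcript set of kallisto were not stated there. Columns were matched to samples by name. Of 19875 entries, 130 that named no gene (103 description fragments, 27 dates) were left out, holding 1.64% to 2.42% of TPM. The 13067 genes that averaged 1 or more TPM were tested on log2(TPM + 1), a scale that understates changes of low genes, with limma 3.58.1 (R 4.3.3): 1 coefficient per group, a variance trend, 12 two-sided comparisons, Benjamini-Hochberg adjustment within each, and a threshold of 0.05. The fit was checked on simulated data. Positions came from GENCODE v29 and promoters from RefSeq, both on GRCh38, the assembly hg38. The members and gene lists were chosen with earlier results of these data known. Members were always named, as were up to 3 passing genes per list and comparison with the smallest p. Alternatives were other pseudocounts, filters, scalings, variance settings, a replicate block, and libraries left out.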

Additional observations from a re-analysis of the deposited data

Results flagged for a closer look

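A total of 7 results were singled out because the test of a difference between 2 lines' sgPOU2F3 effects passed over 18 libraries (limma, adjusted p below 0.05). Between L191A and empty-vector cells these were MT1G (-1.59) and MT2A (-1.31), and both also passed over 16 libraries. Between L191A and WT cells they were MT1A (-1.75), MT1E (-1.17), MT1G (-1.18), MT2A (-1.08) and SLC30A1 (1.83). Of these 5, SLC30A1 also passed over 16 libraries, at 0.86.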

How the results depend on the processing

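Among 108 results for single members, 2418 alternative values held 2128 on the same side of the threshold, 147 that newly passed and 143 that no longer passed, and 0 in which a called change turned its direction; a sign change of an uncalled value was not counted. The numbers of metallothioneins called (of 7) moved by more than 1.5 times as follows, and the cause was not tested. Under median-ratio scaling, which brought the median change of all tested genes from between -0.67 and 0.79 to between -0.04 and 0.03, the sgPOU2F3 effects gave 0 in empty-vector and 0 in WT cells, WT against empty vector gave 0 (sgRosa) and 1 (sgPOU2F3), and L191A against empty vector gave 5 (sgRosa) and 0 (sgPOU2F3). Under quantile normalization the counts were 2 for the WT effect, 1 for WT and 1 for L191A against empty vector under sgPOU2F3, and 7 (L191A minus WT) and 4 (L191A minus empty vector) for the interactions. With array weights they were 4, 5 and 3 for the effects in empty-vector, WT and L191A cells, 4 for L191A against WT, 4 for WT and 6 for L191A against empty vector under sgPOU2F3, 6 and 1 for WT and L191A against empty vector under sgRosa, and 2 (WT minus empty vector) and 5 (L191A minus empty vector) for interactions. Over 16 libraries they were 4 for the empty-vector effect, 3 for L191A against WT, 4 and 4 against the empty vector under sgPOU2F3, 4 for WT against empty vector under sgRosa, and 5 (L191A minus empty vector) and 0 (L191A minus WT) for the interactions. Without the L191A library alone they were 4 and 3 for the empty-vector and WT effects, 1 for L191A against empty vector under sgRosa, 4 for WT against empty vector under sgPOU2F3 and 2 for L191A minus WT. Without the WT library alone the WT effect and the L191A minus WT interaction gave 0 each. A filter at a mean of 5 TPM, which removes MT1A, gave 0 for the WT and L191A effects, 0 for L191A against WT under sgPOU2F3, 1 for L191A against empty vector under sgPOU2F3, 1 for WT against empty vector under sgRosa and 0 for L191A minus WT. Fits of only the groups compared gave 0 for the L191A effect, 4 and 0 for L191A against empty vector under sgPOU2F3 and sgRosa, and 0 (L191A minus WT) and 1 (L191A minus empty vector) for the interactions. A pseudocount of 0.1, no filter and no variance trend each gave 1 for WT against empty vector under sgRosa and 2 for L191A minus WT, and 0.1 also gave 0 for the WT effect. A pseudocount of 5 gave 1 for L191A against empty vector under sgPOU2F3. With the length trend removed the interactions gave 1 (L191A minus WT) and 4 (L191A minus empty vector). Leaving out each replicate in turn gave ranges of 1 to 2, 0 to 1 and 1 to 3 for the effects in empty-vector, WT and L191A cells, 0 to 1 for L191A against WT, 1 to 2 for WT and 0 to 2 for L191A against empty vector under sgPOU2F3, 0 to 2, 0 to 5 and 5 to 6 for WT and L191A against empty vector and L191A against WT under sgRosa, and 0 to 0, 1 to 5 and 0 to 7 for the interactions of WT minus empty vector, L191A minus empty vector and L191A minus WT. With the replicate block, L191A against empty vector under sgRosa gave 4, the L191A effect 2, and the interactions 7 (L191A minus WT) and 4 (L191A minus empty vector). Replicate numbers did not pair the libraries: 16 of 45 same-numbered pairs correlated above 0.1, with a median of -0.011. The depth behind TPM values was unknown, which limits MT1A, MT1M and MTF1 most.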
